A study of Mus musculus with 16 samples.

Results

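The metallothionein genes Mt1 and Mt2, the gene of the metal-sensing transcription factor Mtf1 and the gene of the zinc exporter Slc30a1 were followed in NIH3T3 cells exposed to the proteasome inhibitor bortezomib. The 4 genes were taken by symbol from the 23356 genes in the deposited tables. NIH3T3 is a mouse fibroblast line. Per the labels and the study's methods, all cells carried a stably introduced fusion of a destabilizing domain, a mutant of FKBP12 that is degraded unless its ligand Shield-1 is bound, to superfolder GFP, and had been sorted for high GFP. RNA was sequenced from untreated cells (control, 0 min) and from cells harvested 45, 135 and 405 min after the addition of bortezomib, with 4 libraries for each of the 4 groups. Whether the libraries came from separate cultures was not stated, so p-values measure only the spread between these libraries, which may be technical. Time-matched cells without the drug were not analysed here, and the drug and the elapsed time cannot be told apart. Per the study's methods Shield-1 was kept in the medium of these cells, a general statement that is not repeated for the bortezomib cultures.

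Metallothioneins are small cysteine-rich proteins of the cytosol that bind zinc and copper. Free zinc activates Mtf1, which binds metal response elements in front of the metallothionein genes and of Slc30a1, the exporter that carries zinc out of the cell across the plasma membrane. Metallothionein transcripts are also known to accumulate with cadmium, oxidants and glucocorticoids, and fibroblasts express both Mt1 and Mt2.

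Mt1 and Mt2 lie next to each other. In the GRCm38.p6 RefSeq records, Mt2 spans chr8:94172618-94173567 and Mt1 spans chr8:94178883-94180327, with 5315 bases between them. Mtf1 lies at chr4:124802549-124849800 and Slc30a1 at chr1:191906697-191913248. The coding regions of Mt1 and Mt2 are 186 bases each and are identical at 148 positions (79.6%, GENCODE M1 transcripts). The longest stretch that the transcripts share without a mismatch is 20 bases, and how fragments that match both genes were assigned was not stated.

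The start regions of the 3 genes with a metal response element core are shown because it is through such elements that Mtf1 acts. Each window, from RefSeq on GRCm38.p6, runs on the plus strand from 250 bases before to 30 bases after the start of a RefSeq transcript, which for Mt1 and Slc30a1 lies inside the gene record, and capitals mark the core, searched as TGCACNC or TGCGCNC on both strands. The windows are chr8:94178839-94179118 for Mt1, chr8:94172368-94172647 for Mt2 and chr1:191906531-191906810 for Slc30a1.
Mt1: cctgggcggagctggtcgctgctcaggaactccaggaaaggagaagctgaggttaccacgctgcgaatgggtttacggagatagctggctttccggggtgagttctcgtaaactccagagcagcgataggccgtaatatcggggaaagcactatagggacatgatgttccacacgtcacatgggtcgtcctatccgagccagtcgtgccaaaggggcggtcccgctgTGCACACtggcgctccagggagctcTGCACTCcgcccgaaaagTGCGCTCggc
Mt2: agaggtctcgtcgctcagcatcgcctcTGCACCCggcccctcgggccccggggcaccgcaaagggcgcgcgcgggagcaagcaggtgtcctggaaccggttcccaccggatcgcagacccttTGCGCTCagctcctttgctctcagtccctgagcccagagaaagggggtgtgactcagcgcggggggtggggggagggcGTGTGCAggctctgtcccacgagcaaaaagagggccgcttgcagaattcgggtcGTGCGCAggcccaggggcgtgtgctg
Slc30a1: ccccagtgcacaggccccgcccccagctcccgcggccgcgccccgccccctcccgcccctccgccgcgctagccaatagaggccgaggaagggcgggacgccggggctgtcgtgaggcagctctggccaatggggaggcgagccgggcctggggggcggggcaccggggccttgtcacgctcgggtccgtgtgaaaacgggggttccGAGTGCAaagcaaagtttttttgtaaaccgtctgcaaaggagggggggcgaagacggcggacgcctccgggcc
The Mt1 window held 3 cores, the Mt2 window 4 and the Slc30a1 window 1. Relative to the transcript start used, the Mt1 cores began at bases -23, 3 and 21 and the Mt2 cores at -223, -128, -50 and 5. The Slc30a1 core began at -43. Cores at positive positions lie after that start. The window of Mtf1 at chr4:124802299-124802578 held 0. Of 32817 windows of this length, 24.1% held at least 1 core, 1.73% at least 3 and 0.405% at least 4. The antioxidant response element core, TGACNNNGC, was found 1 time in the Mt2 window and 1 time in the Slc30a1 window, against 11.5% of all windows, with no overlap with the marked letters. The heat shock element core, GAANNTTC, which 7.38% of windows held, was in none of the 4 windows. A match of letters is a description and not a binding site.

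The libraries differed in composition within the groups. Ribosomal protein genes took 4.25% to 9.42% of the fragments in 7 libraries, namely replicates 1 and 2 of the 45 min group, the same numbers of the 135 min group, and replicates 1, 3 and 4 of the 405 min group. In the other 9 libraries, all 4 controls among them, the share was 0.398% to 1.21%. The summed level of 9 fibroblast markers was 3368 to 20670 CPM (fragments of a gene over all fragments assigned to genes in the library, times 1e6) in the 7 libraries and 257.8 to 1542 CPM in the 9. Summed epithelial markers, by contrast, were 0 to 78.7 CPM in the 7 and 88.1 to 172 CPM in the 9. The sums of endothelial, immune and neuronal markers were split in the same way. Taken singly, 4 of 9 fibroblast markers were higher in each of the 7 than in any of the 9, against 4.42% of 22359 genes. Lower in each of the 7 were 1 of 4 epithelial, 2 of 3 endothelial, 0 of 4 immune and 1 of 3 neuronal markers, against 6.22%. Olfactory and vomeronasal receptor genes, which fibroblasts are not known for, made up 1438 of the 23356 genes. Their share of the fragments was 4.14% to 5.12% in each of the 9 but 0.00531% to 2.61% among the 7. Depth was 1385229 to 19930375 fragments in the 7 and 570323 to 1469951 in the 9. No control library exceeded 4%, so treated libraries of over 4% had no control of their kind. Whether the controls hold RNA of untreated fibroblasts as labelled was not tested, and every difference from control given here is a difference from libraries of this composition. Time courses are therefore given for all libraries, for the 7 libraries over 4% (between times), and for the 9 at most 4% (against control). Per the labels all cells were of the same line, so the marker sums are not read as a mix of cell types. The source of the split between the 7 and the 9 libraries was not tested.

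Mt1 was abundant in every library over 4% and low in every other one. The controls held 17, 93, 11 and 15 Mt1 fragments, or 19.2, 108, 12.3 and 17.3 CPM in replicates 1 to 4. At 45 min, Mt1 was at 473, 1085, 4.08 and 0 CPM. The last value is 0 of 624254 fragments, which allows up to 4.81 CPM when 3 counts are taken as the limit, and the exact 95% Poisson interval drawn in the plot of levels by library reaches 5.91 CPM. Replicates 1 and 2 thus lay above every control, while replicates 3 and 4 lay below every control.

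At 135 min, the Mt1 levels were 1216, 401.5, 50.9 and 5.68 CPM. At 405 min, they were 747, 37.7, 520.5 and 688.5 CPM. Both groups overlapped the controls, at 135 min through replicates 3 and 4 and at 405 min through replicate 2 alone. The 7 libraries over 4% held 401.5 to 1216 CPM and the 9 others 0 to 108 CPM, and the ranges did not overlap. Of 22359 genes with any count, 4.42% were likewise higher in every one of the 7 libraries than in any of the 9.

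Because 1 library held no Mt1 fragment, Mt1 did not enter the fit across genes, which took the 5030 genes with a count in all 16 libraries. The mean of log2(CPM + 1) was 4.76 ± 1.36 in control (SD, n = 4 libraries in each group), and it was higher by 0.57 at 45 min (exact permutation test, 2-sided, p = 0.8, n = 4 against 4). It was higher by 2.07 at 135 min (exact permutation test, p = 0.286) and by 3.56 at 405 min (exact permutation test, p = 0.0571). None of these differences was larger than the spread between replicates by this test, whose smallest possible p was 0.0286. The size at 45 min depended on the scale, with 0.32 and 1.12 for pseudocounts of 0.5 and 5. In an edgeR quasi-likelihood fit with no filter on counts, which compares fitted means of counts, the log2 fold change of Mt1 was 4.43 (SE 1.92, adjusted p = 0.556) at 45 min, 4.18 (SE 1.90) by 135 min and 4.96 (SE 1.97, adjusted p = 0.429) by 405 min. Among the libraries at most 4%, Mt1 at 45 min (4.08 and 0 CPM) lay below all 4 controls, with a difference in means of -3.59 on the log2(CPM + 1) scale (exact permutation test, p = 0.133, the smallest that 2 libraries against 4 allow). The counts there were 6 and 0 against 11 to 93, and 6.27% of the 13908 genes with a 0 in any of the 9 libraries lay apart in this direction.

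**Figure D1:**
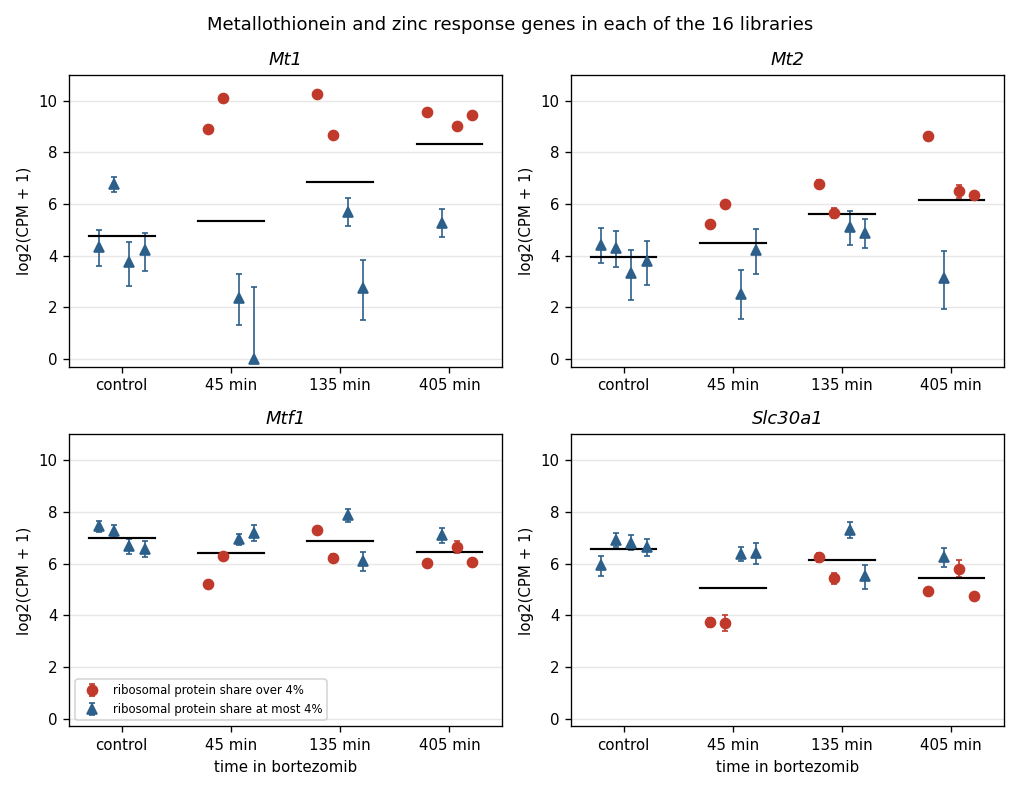
Level of Mt1, Mt2, Mtf1 and Slc30a1 in each library as log2(CPM + 1), by time in bortezomib and, within a time, by replicate number from left to right. Red circles are libraries with a ribosomal protein share over 4% and blue triangles the others, bars are exact 95% Poisson intervals (counting error only) and black lines group means; Mt1 and Mt2 are higher in every red library than in any blue one, while Slc30a1 is lowest in the 2 red libraries at 45 min.

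Mt2 showed the same split on a smaller scale. Its levels in control were 20.3, 18.6, 8.98 and 12.7 CPM, from 8 to 18 fragments a library. At 45 min they were 36.1, 62.1, 4.76 and 17.6 CPM. Replicates 1 and 2 lay above every control, replicate 3 below every control and replicate 4 among them.

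At 135 min, Mt2 was at 109, 48.9, 33.3 and 28.4 CPM. All 4 of these libraries lay above all 4 controls, the 2 libraries at most 4% (replicates 3 and 4, with 19 and 25 fragments) included. This held for 2.47% of the 5030 tested genes in the same direction, and among the libraries at most 4% for 13.4% of the 8366 genes with a count in all 9. At 405 min, Mt2 was at 390.0, 7.80, 88.8 and 80.7 CPM, with replicate 2 below every control and the others above.

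In the fit of all 16 libraries with edgeR's quasi-likelihood test, the log2 fold change of Mt2 against control was 1.43 (SE 0.95, adjusted p = 0.531) at 45 min. By 135 min it was 2.17 (SE 0.97, adjusted p = 0.513). By 405 min it was 3.55 (SE 1.02, adjusted p = 0.285), and for both of these times the unadjusted p was under 0.05. Single libraries weighed on each value, which was 0.57 without 45 min replicate 2, 1.41 without 135 min replicate 1 and 2.38 without 405 min replicate 1. No comparison passed the threshold of an adjusted p under 0.05 for Mt2, and 0.0% of the 5030 genes did at any time by this test. At an unadjusted p under 0.05, 12.1% of the genes were higher than control at 45 min, 7.83% at 135 min and 14.5% at 405 min. DESeq2 called Mt2 at 405 min (log2 fold change 3.39, adjusted p = 0.00986), together with 351 genes in all that it called higher, and over the alternative fits the adjusted p of Mt2 at 405 min ranged from 0.00986 to 0.9999. In the libraries at most 4%, Mt2 differed from control by 0.90 (SE 0.76) on the log2 scale at 135 min, by -0.50 (SE 0.82) at 45 min and, with 1 library, by -0.94 (SE 1.13) at 405 min, so the sign at 45 and 405 min was the opposite of that in all libraries. The 405 min value rests on 6 Mt2 fragments of 1 library, which is assumed to vary like the other groups. The 405 min library lay below all 4 controls, as 16.8% of genes did. In this fit no gene was called at 45 or 135 min (0.0%) and 2 genes at 405 min (0.0239%), from that 1 library, and neither was Mt2, Mtf1 or Slc30a1.

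**Figure D2:**
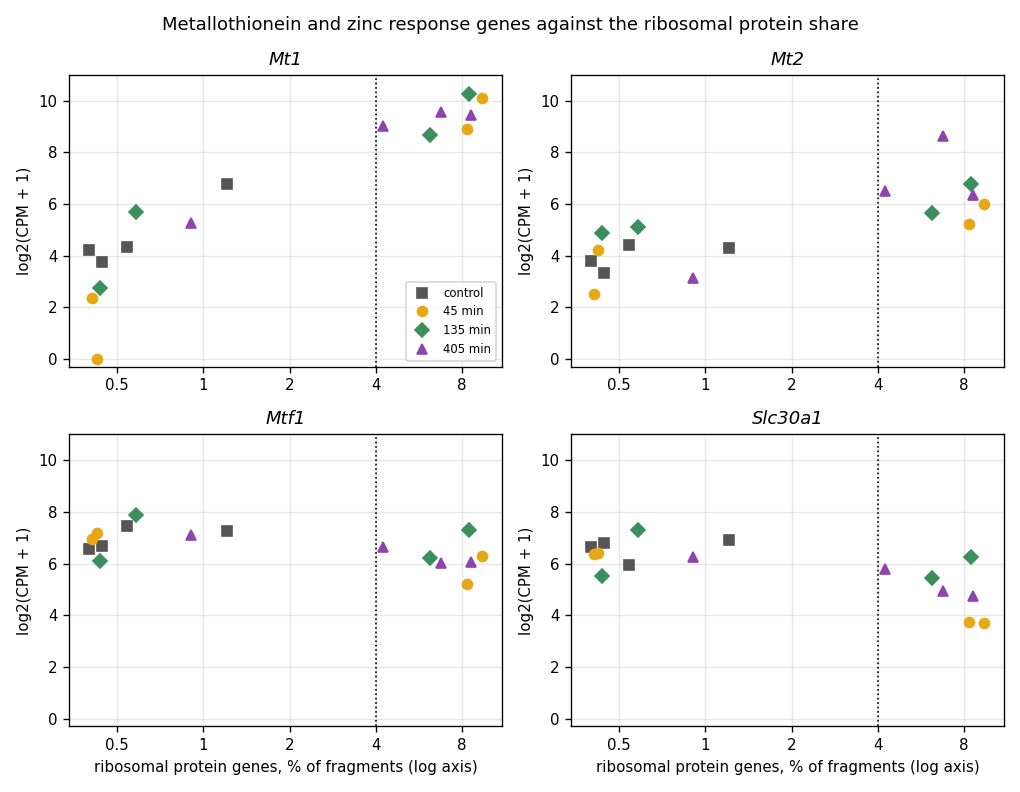
Level of each gene as log2(CPM + 1) against the share of fragments in ribosomal protein genes (log axis), 1 point per library, with the symbol giving the group and the dotted line marking 4%. The 4 controls lie between 0.398% and 1.21%, all to the left of the line; Mt1 and Mt2 are high to its right, Slc30a1 and Mtf1 mostly lower there.

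The levels moved with the composition of the libraries. Over the 16 libraries, log2(CPM + 1) of Mt1 and the log2 ribosomal protein share had a Pearson r of 0.93, against 0.78 for Mt2, -0.52 for Mtf1 and -0.72 for Slc30a1. These points fall into separate sets of 7 and 9 libraries. Within the 7 libraries r was 0.56 for Mt1, -0.16 for Mt2, -0.19 for Mtf1 and -0.53 for Slc30a1, and within the 9 it was 0.74, 0.09, 0.42 and 0.26. With the log2 ribosomal protein share as a covariate, the log2 fold change of Mt2 against control became -0.31 at 45 min, 0.79 at 135 min and 1.36 at 405 min. The part of composition in the differences from control was not tested further.

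Mtf1, whose product turns the metallothionein genes on in response to zinc, was not called in any comparison. The edgeR quasi-likelihood test on all 16 libraries called 0.0% of the 5030 genes, so this is not particular to Mtf1. Its levels were 173, 153, 101.0 and 93.7 CPM in control and 36.0, 76.6, 122 and 146 CPM at 45 min. The 135 min group held 158, 73.7, 235 and 67.0 CPM, and the 405 min group 64.7, 136, 99.6 and 66.5 CPM. Each group overlapped the controls, and the lowest value came from 45 min replicate 1, a library over 4%. The log2 fold changes against control were -0.30 (SE 0.53, adjusted p = 0.794), 0.19 (SE 0.53, adjusted p = 0.918) and -0.27 (SE 0.53, adjusted p = 0.767) at 45, 135 and 405 min (edgeR quasi-likelihood test).

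Slc30a1 was lowest in the 45 min libraries over 4%. Its control levels were 59.9, 120, 111 and 98.3 CPM, against 45 min levels of 12.2, 12.1, 82.3 and 83.3 CPM. The first and second of these 45 min libraries lay below every control and the other two among the controls. At 135 min the levels were 74.8, 42.1, 158 and 44.3 CPM. At 405 min they were 29.8, 75.4, 54.9 and 25.9 CPM, with overlap with the controls at both times. The log2 fold changes against control were -0.999 (SE 0.61, adjusted p = 0.485), -0.17 (SE 0.60, adjusted p = 0.934) and -0.86 (SE 0.61, adjusted p = 0.459) at 45, 135 and 405 min (edgeR quasi-likelihood test). In the libraries at most 4% they were -0.22 (SE 0.50), -0.12 (SE 0.50) and, with 1 library whose spread is taken from the other groups, -0.36 (SE 0.65).

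Within the 7 libraries over 4%, times could be compared with each other but not with control, over 8605 genes with a count in each. These libraries still differed in composition, with a receptor gene share of 0.00531% and 0.225% at 45 min, of 0.364% and 1.42% in the 135 min group, and of 0.337%, 2.61% and 0.00671% in replicates 1, 3 and 4 of the 405 min group. Replicate 3 of the last group, at 4.25%, was also the nearest to the limit on ribosomal protein share. Slc30a1 was at 12.2 and 12.1 CPM at 45 min, 74.8 and 42.1 CPM at 135 min, and 29.8, 54.9 and 25.9 CPM at 405 min. Both later groups lay wholly above the 45 min libraries. The log2 fold change from 45 to 135 min was 2.20 (SE 0.73, adjusted p = 0.997), and from 45 to 405 min it was 1.57 (SE 0.68, adjusted p = 0.690, edgeR quasi-likelihood test). Groups that did not overlap in this direction were found for 19.8% of the genes at 135 min and for 9.24% at 405 min, and 1.28% and 3.01% of the genes, Slc30a1 at both times among them, were higher with an unadjusted p under 0.05. When replicates were blocked by number, the 135 min difference was 2.09 (SE 1.25, adjusted p = 0.9999) and its unadjusted p was no longer under 0.05. Replicate numbers 3 and 4 each occurred in 1 of the 7 libraries. The blocked fit thus had little left to estimate the spread from, and its p cannot decide about the difference. No gene passed the adjusted threshold (0.0% of 8605) in any of these comparisons.

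Mt2 in these libraries was at 36.1 and 62.1 CPM at 45 min, 109 and 48.9 CPM at 135 min, and 390.0, 88.8 and 80.7 CPM at 405 min. The 405 min libraries lay above the 45 min libraries, as they did for 9.24% of the 8605 genes. The log2 fold change of Mt2 between these times reached 1.87 (SE 0.84, adjusted p = 0.691, edgeR quasi-likelihood test). Without 405 min replicate 1, the library with the highest Mt2 level, it was 0.83 (SE 0.74). Mt1 had no such order, with 473 and 1085 CPM at 45 min, 1216 and 401.5 CPM at 135 min and 747, 520.5 and 688.5 CPM at 405 min.

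The log2 fold change of Mt1 was 0.01 (SE 0.85) from 45 to 135 min and -0.26 (SE 0.77) from 45 to 405 min. Mt1 levels at the first and last time were thus of the same order, within wide errors. With no control over 4%, whether Mt1 had risen before 45 min cannot be told. For Mtf1 the log2 fold change was 0.98 (SE 0.70) and 0.43 (SE 0.64). The summed fibroblast markers of these libraries were 20670 and 16240 CPM at 45 min, 11600 and 13340 CPM at 135 min, and 17320, 3368 and 13750 CPM at 405 min. All 9 fibroblast markers had a negative log2 fold change from 45 to 135 min, with a median of -1.01, against -0.07 over all genes tested, and 7 of 9 from 45 to 405 min, with a median of -1.30, against 0.14. The part of this in the course of the 4 genes was not tested.

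**Figure D3:**
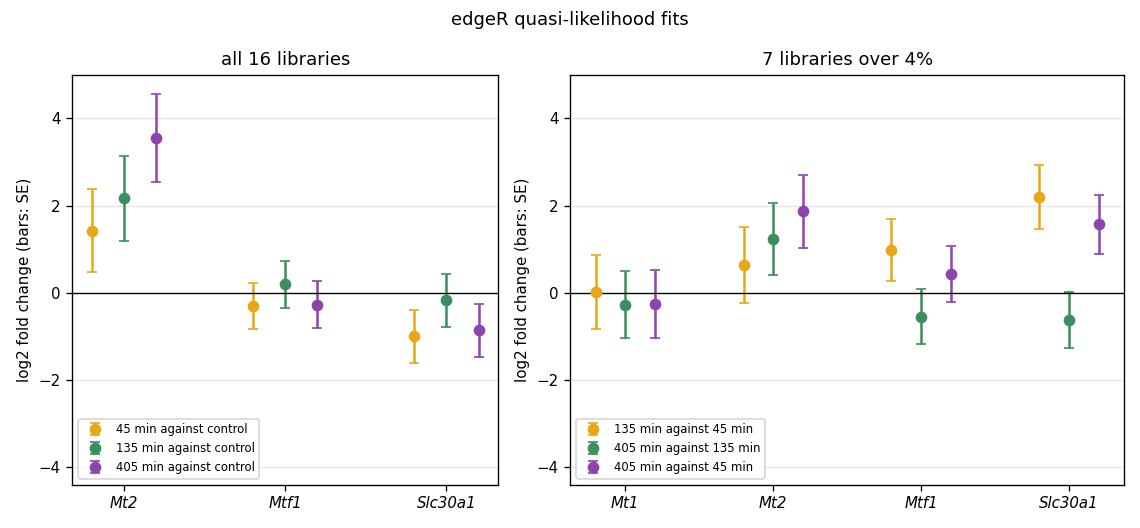
Log2 fold changes from the edgeR quasi-likelihood fits with their standard errors, against control in all 16 libraries (left; Mt1 did not enter this fit) and between times in the 7 libraries over 4% (right). Mt2 reaches 3.55 at 405 min on the left; on the right Slc30a1 is 2.20 higher at 135 than at 45 min and Mt1 stays within 1 SE of 0.

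The share of Mt2 among the fragments of both metallothioneins is free of library composition only if the part of other composition holds neither gene. The 9 libraries at most 4% did hold fragments of these genes, though few, with Mt2 shares of 14.7% to 100%. The part of composition in the shares given here was not tested. In the libraries over 4%, Mt2 made up 7.09% (95% Wilson interval 6.59% to 7.63%) and 5.41% (4.91% to 5.97%) of Mt1 and Mt2 fragments at 45 min. At 135 min it made up 8.25% (7.46% to 9.12%) and 10.9% (9.60% to 12.3%). At 405 min the shares were 34.3% (33.6% to 35.0%), 14.6% (12.4% to 17.1%) and 10.5% (10.02% to 10.99%) in replicates 1, 3 and 4.

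All 405 min shares lay above both 45 min shares, with intervals that did not overlap, and the 405 min and 135 min shares overlapped. The intervals cover counting error only. The mean share was 6.25 ± 1.19% (SD, n = 2) for 45 min, 9.56 ± 1.85% (SD, n = 2) for 135 min and 19.8 ± 12.7% (SD, n = 3) for 405 min. The exact permutation test gave p = 0.2 for 405 against 45 min, where no smaller p is possible with 3 libraries against 2. It gave p = 0.333 for 135 against 45 min, the lower limit of the exact permutation test for 2 against 2. Of 9 such comparisons, 3 in these libraries and 6 in all libraries, the adjusted p was 0.771 or more. In all libraries the differences between times had the opposite sign, with -22.5 percentage points for 405 against 45 min and -6.08 for 135 against 45 min. Without 405 min replicate 1, the difference between 405 and 45 min was 6.28 percentage points in place of 13.5. In the 9 libraries at most 4% the shares ranged from 14.7% to 100%, but rested on 11 to 109 fragments of both genes together.

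**Figure D4:**
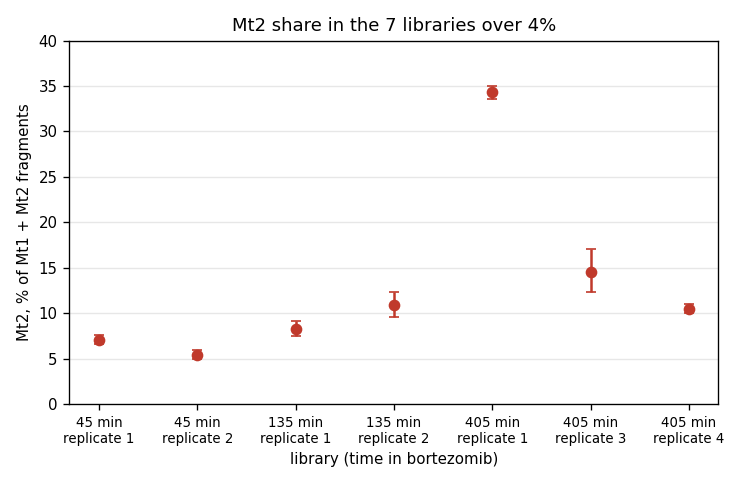
Mt2 as a percentage of the fragments of Mt1 and Mt2 together in the 7 libraries with a ribosomal protein share over 4%, with 95% Wilson intervals (counting error only). The 45 min libraries sit at 7.09% and 5.41% and the 405 min libraries between 10.5% and 34.3%.

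Per length, Mt1 was the more abundant of the metallothioneins in every library over 4%. The ratio of the deposited FPKM of Mt1 to that of Mt2 was 13.1 and 18.2 for 45 min, 14.3 and 8.55 for 135 min, and 1.77, 6.11 and 8.89 for 405 min. The lowest ratio was in the library with the most Mt2. With CPM divided by the exon length in GENCODE M1 (753 bases for Mt1 and 556 for Mt2), the median ratio of these libraries was 6.30 in place of 8.89. On the same FPKM scale, Mtf1 was at 4.47 to 25.5 and Slc30a1 at 2.10 to 14.0 in these libraries, against 1109 to 13630 for Mt1 and 130 to 956 for Mt2. On this scale the Mt1 and Mt2 ranges overlapped neither each other nor those of Mtf1 and Slc30a1, which overlapped each other. The deposited FPKM did not keep a fixed ratio to CPM between libraries. Mt1 had 13630 FPKM at 1216 CPM in 135 min replicate 1, but 1601 FPKM at 747 CPM in 405 min replicate 1. The top of the Mt1 range thus depends on how the deposited FPKM was computed.

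Other genes of zinc and copper handling were examined as lists. Of the 4 metallothioneins, Mt3 and Mt4, which are known from brain and from stratified epithelium, held 60 and 15 fragments in all 16 libraries together. Of 10 zinc exporters (Slc30 family, Slc30a1 among them) 5 entered the fit across all libraries, and of 14 importers (Slc39 family) 3. Of 6 genes known or proposed to respond to Mtf1 or zinc 2 entered it, and of 9 copper genes 2. The importer Slc39a10 is also in the list of 6. None was called in any comparison (0 of 5, 0 of 3, 0 of 2 and 0 of 2), against 0.0% of all genes. One exporter, Slc30a5, which carries zinc into the secretory pathway and is named after its values were seen, had an unadjusted p under 0.05 against control for 45 and 135 min. It was at 21.3 to 33.9 CPM in control, at 32.7 to 109 CPM at 45 min and at 45.6 to 180 CPM at 135 min. The last group lay wholly above the controls, where the log2 fold change reached 2.12 (SE 0.65, adjusted p = 0.513, edgeR quasi-likelihood test), and the first did not. Among the libraries at most 4% this difference was 1.49 (SE 0.61, adjusted p = 0.423, same test). Of the 5030 tested genes, 2.47% lay wholly above the controls at 135 min. At an unadjusted p under 0.05 by this test, 12.1% of them were higher at 45 min and 7.83% at 135 min. The exporters with the largest mean counts were Slc30a4, at 122 to 351 CPM over the 16 libraries, and Slc30a7, at 33.3 to 165 CPM, with log2 fold changes against control from -0.19 to 0.32. The most abundant copper gene in the fit, the copper importer Slc31a1, was at 20.4 to 117 CPM, and differed from control by 0.56 at 45 min, 0.12 at 135 min and 0.95 at 405 min on the log2 scale, with an SE of 0.58 for each. Slc39a7, which releases zinc from the endoplasmic reticulum, was at 0 to 229 CPM, highest in 405 min replicate 1.

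The median log2 fold changes against control at 45, 135 and 405 min were 0.05, 0.07 and -0.13 for the exporters, -0.40, -0.81 and -0.21 for the importers, and 0.34, -0.07 and 0.38 for the copper genes. Over all tested genes they were 0.14, 0.16 and 0.11. The further zinc response genes in the fit were Fth1, the ferritin heavy chain that stores iron, and Gclc, the catalytic subunit of the first enzyme of glutathione synthesis, with a median of 3.09, 3.71 and 3.95. Both were higher in each of the 7 libraries over 4% than in any of the 9 others, at 4861 to 8974 CPM against 37.4 to 1185 CPM for Fth1 and at 78.7 to 321 CPM against 23.6 to 70.5 CPM for Gclc. The other 4 genes of this list of 6 did not separate in this way, and 4.42% of all genes did.

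List genes that the fit did not take were compared with control by exact permutation tests, 87 tests of 29 genes with Mt1 among them, and 7 had an unadjusted p of 0.0286, the smallest that 4 libraries against 4 allow. Higher at 405 min were Slc39a6, a zinc importer of the plasma membrane, at 49.1 to 149 CPM against 0 to 29.2 CPM, and Sod1, the copper and zinc superoxide dismutase, at 31.2 to 444 CPM against 1.16 to 24.9 CPM. Among all 17329 genes that the fit did not take, 1.47% lay apart in this direction at 405 min. Sod1 was also higher in each library over 4% than in any other, at 64.7 to 444 CPM against 0 to 31.2 CPM. This held for 4.42% of all genes. The 31.2 CPM was that of 405 min replicate 2, the only library of its group at most 4%. Lower at 135 min were the exporters Slc30a2 and Slc30a9, the importers Slc39a1 and Slc39a12 and the copper pump Atp7b, by 2.12 to 3.72 on the log2 scale. In that direction 10.2% of the 17329 genes lay apart at 135 min.

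Heat shock and oxidative stress genes, which are known to respond to proteasome inhibitors, were set beside the metallothioneins in the 7 libraries over 4%. From 45 to 405 min, 3 of 3 fitted heat shock genes had a positive log2 fold change, with a median of 4.44, and 6 of 6 oxidative stress genes, with a median of 1.61, against 0.14 over all genes, and none was called. Hspa1b, an inducible Hsp70 chaperone, was at 71.6 and 163 CPM at 45 min, 2427 and 770.0 CPM at 135 min, and 2834, 10100 and 5899 CPM at 405 min. Its log2 fold change from 45 to 405 min was 5.74 (SE 1.26, adjusted p = 0.672, edgeR quasi-likelihood test), beside -0.26 for Mt1 and 1.87 for Mt2. The 135 and 405 min levels of Hspa1b lay above the 45 min levels, as did those of 19.8% and 9.24% of all genes.

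Hmox1, the heme oxygenase induced by oxidants, was at 130.0 and 37.0 CPM at 45 min, 64.4 and 375 CPM at 135 min and 1828, 41.2 and 747 CPM at 405 min. Its highest level and that of Mt2 were in the same library, 405 min replicate 1. Txnrd1, thioredoxin reductase, was at 569 and 745 CPM at 45 min and 857 to 2199 CPM at the later times. Hsph1, a chaperone of the Hsp110 family, was at 366 and 110 CPM at 45 min and reached 5159 and 4509 CPM in 405 min replicates 1 and 4, with 541 CPM in replicate 3. These are values beside those of the metallothioneins, and the difference between the courses was not tested.

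**Figure D5:**
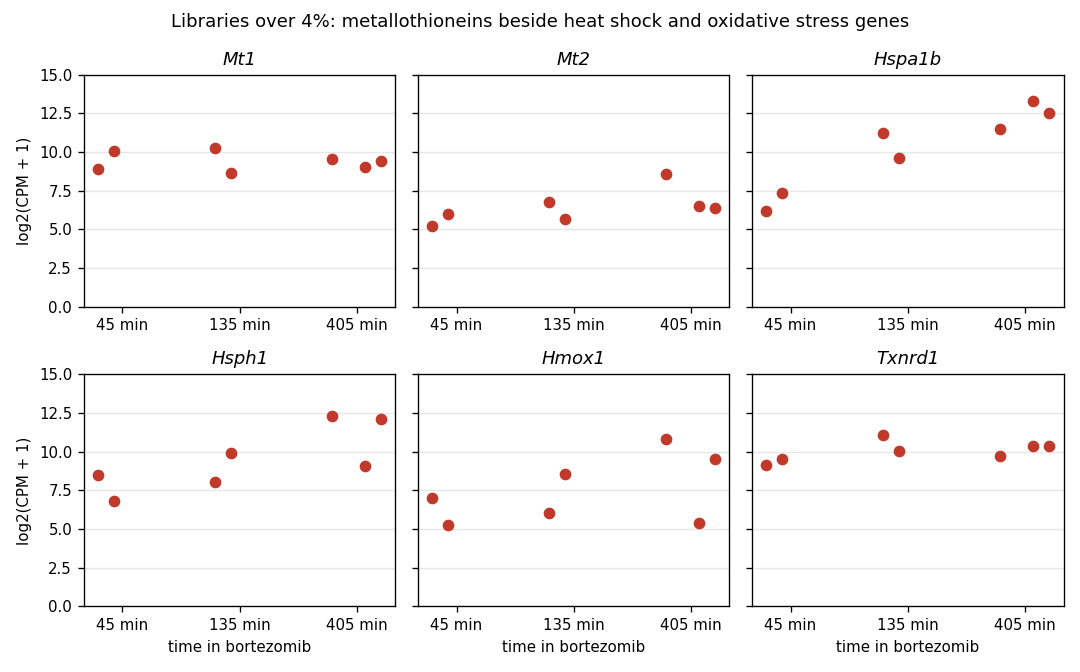
Level as log2(CPM + 1) by time in the 7 libraries with a ribosomal protein share over 4% (2, 2 and 3 libraries), for both metallothioneins, the heat shock genes Hspa1b and Hsph1 and the oxidative stress genes Hmox1 and Txnrd1, 1 point per library. Mt1 lies between 401.5 and 1216 CPM at all times, whereas Hspa1b goes from 71.6 and 163 CPM at 45 min to 2834 to 10100 CPM at 405 min.

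Likeness of course was measured as Pearson r of log2(CPM + 1) and is given as a description. Over the 7 libraries over 4%, the 5 genes most like Mt1 among 8604 were Ireb2 (r = 0.98), Xpot, Clint1, Ghitm and Sec13 (r = 0.96), and those most like Mt2 were Lmbrd2 (r = 0.97), Copa, Heatr5a, Smcr8 and Zfp346 (r = 0.91). None was in the lists of zinc and copper genes, and Ireb2 is known as a regulator of iron handling. Mt1 and Mt2 themselves had r = 0.38 over these libraries, Mt1 and Mtf1 0.56, and Mt1 and Slc30a1 0.06.

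Over all 16 libraries, which fall into the 2 sets of 7 and 9, the genes most like Mt1 were Itm2b (r = 0.98), Sfpq, Dkc1, Ppp1cb and Rps13 (r = 0.97), and among those most like Mt2 were Cct2 (r = 0.87), Otud4, Picalm and Nid1 (r = 0.85). Mt1 and Mt2 had r = 0.76 over these libraries, and both had a negative r with Slc30a1 (-0.56 and -0.50). The points of each correlation share the depth and composition of their libraries.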

How the data were processed

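The samples were 16 bulk RNA libraries, grouped by the time in their titles. The authors deposited, for each library, estimated counts (raw fragments per gene) and FPKM. Per the labels, total RNA was purified with a column kit and libraries were made with a NuGEN Encore Complete kit. The labels name mm10, whereas the study's methods name mm9 with RefSeq and DNAnexus; the aligner and its version are not given in the sources used here. Coordinates printed are RefSeq's on GRCm38.p6 and were not taken from the tables.

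Counts were rounded (98.9% to 99.8% of values lay within 0.01 of a whole number). In 1 table, 27 symbols turned into dates were restored by row order. No 2 of 120 library pairs were identical. Depth was 570323 to 19930375 fragments, a 34.9-fold range.

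Genes with at least 1 count in every library were tested with edgeR 4.0.16 (R 4.3.3): TMM, 1 mean per group, quasi-likelihood F test, Benjamini-Hochberg over all tested genes, called at 0.05. Standard errors are the log2 fold change over the square root of F. Genes not tested went into 2-sided exact permutation tests on the log2(CPM + 1) scale (scipy 1.17.1). Libraries over and at most 4% ribosomal protein share (symbols starting Rpl or Rps and a digit) were also fitted alone. The fit was also run on simulated counts, and how many changed genes it recovered is not given here. Deviations from the group means of same-numbered libraries had r from -0.76 to 0.61. Between 45 and 135 min all 4 pairs had r of 0.51 to 0.56. In both groups replicates 1 and 2 were over 4% and replicates 3 and 4 were not. These r therefore cannot tell pairing by number from that split, and no pairing is stated in the labels. The genes and lists were chosen with earlier results of these data known, and the 4% threshold was part of that choice. Named were the 4 genes, list genes passing a test or else the 2 with the largest mean count, fixed comparison genes, of which 4 are given with values, and the 5 most alike, of which 1 is not reported here. Alternatives were filterByExpr and no filter, DESeq2 1.42.0 and the exact test of edgeR, RLE factors, thinned counts, a replicate block, a fit of only the 2 groups, the ribosomal protein share as covariate, pseudocounts of 0.5 and 5, and leaving out each library. The Mt2 share, and alternatives within the libraries over 4%, were added after seeing the data.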

Additional observations from a re-analysis of the deposited data

Results flagged for a closer look

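Mt1 in 405 min replicate 2 was at 37.7 CPM, far below the other 405 min libraries at 520.5 to 747 CPM. The gap to the nearest library was 0.878 of the range of the group on the log2(CPM + 1) scale. This library had a ribosomal protein share of 0.907%, at most 4%, whereas the other 405 min libraries exceeded 4%. Over the 4 genes and 4 groups, 16 groups of 4 libraries were looked at and 1 was flagged. Chance flags about 1 in 20 groups.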

How the results depend on the processing

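Counts of called genes were 0 in every comparison with edgeR's quasi-likelihood test on the 5030 genes in all 16 libraries. Against control, DESeq2 called 224 genes higher (45 min), 8 higher (135 min), and 351 higher with 1 lower (405 min); from 45 to 405 min it called 3 higher and 2 lower. It called Mt2 at 405 min against control, with a log2 fold change of 3.39. The edgeR exact test called 12 higher at 405 min than in control and 1 at 405 than at 45 min. filterByExpr called 1 lower at 405 min against control, 1 against 135 min and 2 against 45 min, and no filter 1, 2 and 2. Libraries at most 4% gave 2, 1 and 2 higher in these comparisons, and the covariate 1 higher and 1 lower at 405 than at 45 min. RLE factors moved the median of all genes at 405 min against control from 0.11 to -0.02.

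Signs turned as follows (log2). Libraries at most 4% gave Mt1 at -3.59 (45 min) and -0.54 (135 min) against control, Mt2 at -0.50 (45 min), -0.94 (405 min), -1.84 (405 against 135 min) and -0.44 (405 against 45 min), Mtf1 at 0.039 (45 min), 0.072 (405 min), -0.0027 (135 against 45 min) and 0.035 (405 against 135 min), and Slc30a1 at -0.14 (405 against 45 min). The covariate gave Mt2 at -0.31 (45 min) and Slc30a1 at 0.35 (135 min). For Mtf1 at 405 min against control, filterByExpr gave 0.31, no filter 0.36 and only the groups compared 0.029; no filter gave 0.0105 against 135 min, and RLE factors and DESeq2 gave -0.085 and -0.083 against 45 min. Slc30a1 at 135 min against control was 0.012 with only the groups compared, and at 405 against 45 min -0.026 with thinning. The cause was not tested.

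Leaving out each library gave ranges that crossed 0 for Mt1 at 45 min (-1.01 to 2.35), Mt2 at 135 against 45 min (-0.19 to 1.64), Mtf1 at 135 min (-0.057 to 0.40) and 405 against 45 min (-0.30 to 0.21), and Slc30a1 at 135 min (-0.47 to 0.043) and 405 against 45 min (-0.25 to 0.52). In the libraries over 4% these were Mt1 at 135 against 45 min (-1.25 to 0.79), 405 against 135 min (-0.94 to 0.93) and 405 against 45 min (-0.76 to 0.54), Mt2 at 135 against 45 min (-0.29 to 1.20), and Mtf1 at 405 against 135 min (-1.09 to 0.26) and 405 against 45 min (-0.046 to 1.14). Mt2 at 405 min against control stayed between 2.38 and 3.95, and Slc30a1 at 135 against 45 min over 4% between 1.52 and 2.67.

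Whether the replicate numbers pair the libraries could not be decided from the correlations of deviations, because the split at 4% enters them. The libraries at most 4% were replicates 3 and 4 at 45 and 135 min but replicate 2 at 405 min. Same-numbered pairs had r over 0.1 in 14 of 24 cases, and 5 of 16 libraries matched best with their own number. The 45 and 135 min groups shared the same split at 4% by replicate number, so pairing could not be told from composition there. For 135 against 45 min the replicate block gave 0.74 for Mt2, 0.43 for Mtf1 and 0.97 for Slc30a1. It left every count of calls at 0, with Mt2 at 405 min against control at 3.36, and among the libraries over 4% turned Mt1 at 135 against 45 min to -0.15. With no control over 4%, no comparison with control could be made there. Depth limits the metallothioneins in the 9 libraries at most 4%, where Mt1 rested on 0 to 93 fragments and Mt2 on 6 to 25.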
